A study of Homo sapiens and synthetic construct with 52 samples.

Results

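The guides described here target dCas9-KRAB to the genes of cohesin and condensin, the ring-shaped protein complexes that hold and fold chromosomes, together with separase, the protease that opens the cohesin ring. A guide was taken where the gene symbol at the start of its name was one of 21 listed symbols. That gave 113 of the 103074 guides in the genome-wide CRISPRi library, against 21 of its 18788 genes: 63 guides against 12 cohesin genes, 45 against 8 condensin genes and 5 against ESPL1, which encodes separase. STAG2 and SMC4 have 10 guides each, 5 at each of the transcription start sites called P1 and P2, SMC1A has 3, and every other gene has 5. The symbol WAPAL is the older name of WAPL.

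The series compared a recloned CRISPRi version 2 library, called LGR, with the publicly distributed library of the same guides, called legacy, in pooled growth screens. The cells were K562, an established chronic myeloid leukemia line, carrying dCas9-KRAB, a cut-deficient Cas9 fused to a repressor domain that silences the promoter a guide directs it to. The dCas9-KRAB line was a pool sorted for BFP, not a clone. In the drop-out screens the LGR library was carried at 1000-fold cell coverage (3 samples called Tf after 7 days of culture and 1 starting sample called T0) or at 100-fold (4 Tf and 2 T0 samples). In the dasatinib screens both libraries were carried at 100-fold in parallel: 2 DASA samples per library received 0.75 nM dasatinib, a BCR-ABL1 and SRC-family kinase inhibitor, for 72 h, 2 DMSO samples received 0.01% DMSO for as long, both then recovered for 6 days in medium without drug, and 2 T0 samples per library (A and B) were collected 7 days after infection. Each library in the dasatinib screens was transduced once and split into technical replicates, so p-values there measure the spread between cultures of 1 transduction, and no sample measured how far a guide lowered its target. The paper also speaks of technical replicates in the 100-fold drop-out screen, so p-values there may carry the same limit.

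Cohesin is built from the ATPases SMC1A and SMC3, which are closed into a ring by the kleisin RAD21 and bound by either STAG1 or STAG2. NIPBL and MAU2 load the ring onto DNA, WAPAL with PDS5A or PDS5B releases it, and ESCO1 and ESCO2 acetylate SMC3, which protects the ring from release so that sister chromatids stay together until separase cuts RAD21 at anaphase. Condensin I and condensin II share the ATPases SMC2 and SMC4 and differ in their other subunits: NCAPH, NCAPD2 and NCAPG in condensin I, and NCAPH2, NCAPD3 and NCAPG2 in condensin II. Both compact chromosomes for mitosis, condensin II from within the nucleus and condensin I after the nuclear envelope has broken down. STAG2 is mutated in myeloid neoplasms, among other tumours.

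The promoters of the STAG genes are shown because of STAG2, which was called under dasatinib in both libraries. Its calls were at the P1 start and not at P2, and its paralog was called in neither. Each window holds the 250 bases before a RefSeq transcription start in GRCh38.p14, read 5′ to 3′ on the gene's strand, as RefSeq gives them. Capitals mark matches of CCAAT (or ATTGG on the other strand) and of GGGCGG (or CCGCCC), and none of these matches overlap in the windows shown. Of all 35116 promoter windows of this kind, 32.0% held the first motif and 42.6% the second. The P1 guides lie at 123095617 to 123096024 and the P2 guides at 123094550 to 123094973 on chromosome X of hg19, by the position of the PAM in their names, and were not placed on the GRCh38.p14 windows.
STAG2 start 1, + strand, chrX:123960310-123960559: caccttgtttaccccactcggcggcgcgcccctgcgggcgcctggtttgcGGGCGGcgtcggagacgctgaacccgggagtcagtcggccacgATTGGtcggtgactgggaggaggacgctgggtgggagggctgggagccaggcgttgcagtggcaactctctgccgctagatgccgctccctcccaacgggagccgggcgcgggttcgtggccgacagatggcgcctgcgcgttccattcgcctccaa
STAG2 start 2, + strand, chrX:123961062-123961311: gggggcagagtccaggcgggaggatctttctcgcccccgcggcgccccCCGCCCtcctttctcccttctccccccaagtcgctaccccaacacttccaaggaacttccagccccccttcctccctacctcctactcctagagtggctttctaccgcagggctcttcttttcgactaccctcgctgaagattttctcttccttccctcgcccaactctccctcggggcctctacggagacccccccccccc
STAG2 start 3, + strand, chrX:123961808-123962057: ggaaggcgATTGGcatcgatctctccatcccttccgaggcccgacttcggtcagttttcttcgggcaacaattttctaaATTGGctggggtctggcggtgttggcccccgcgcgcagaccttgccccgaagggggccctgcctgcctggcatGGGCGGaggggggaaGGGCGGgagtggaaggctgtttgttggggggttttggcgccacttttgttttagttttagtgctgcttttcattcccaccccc
STAG1 start 1, - strand, chr3:136752379-136752628: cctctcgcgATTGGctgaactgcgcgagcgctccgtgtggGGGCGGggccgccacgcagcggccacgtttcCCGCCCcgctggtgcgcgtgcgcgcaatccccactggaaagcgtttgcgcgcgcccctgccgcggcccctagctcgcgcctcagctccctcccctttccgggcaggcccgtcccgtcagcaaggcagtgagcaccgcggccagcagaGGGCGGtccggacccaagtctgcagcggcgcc

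Total guide counts per sample were 105684438 to 111002750 in the 1000-fold screen, 47678549 to 54678272 in the 100-fold screen and 15739255 to 19844033 in the dasatinib screens. The median count of the 113 guides was 640 to 869, 279 to 450 and 70 to 168 in these screens, and 0 to 1, 0 to 5 and 0 to 13 of the guides were at 0. Counts are given below as CPM (counts scaled to the same total in every sample), summed over a gene's guides where a gene is named. The gene phenotype is the mean log2 enrichment of the 3 guides that moved furthest, relative to the median non-targeting guide. A gene was called where the product of its phenotype's size and the strength of a Mann-Whitney test of its guides against 1889, 1888, 1889 and 1781 non-targeting guides (in the 1000-fold, the 100-fold, the LGR DMSO and the Legacy DMSO comparison) passed an estimated false discovery rate of 5%. That test runs across guides, which are not replicates. A guide was scored where 1 sample of either group reached 50 counts. Of the member guides scored, 7 of 113, 12 of 113, 30 of 106 and 32 of 107 reached it only through T0 in the 4 growth comparisons, and the filter favours a fall for these. The errors of phenotypes are SDs over the Tf, DMSO or DASA samples, and single guides and summed counts were tested over samples with edgeR.

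Guides against most cohesin and condensin genes were lost during growth. Of the 21 genes, 12 were lower in Tf than in T0 at 1000-fold coverage (11.3% of all genes were called lower) and 13 at 100-fold (10.2%). In the dasatinib screens, 13 of the 20 genes scored with the LGR library (10.1% of all genes) and 14 of 21 with the legacy library (9.48%) were lower in DMSO than in T0. None of the 21 genes was called higher in these 4 growth comparisons, in which 0.0532%, 0.0319%, 0.0426% and 0.08% of all genes were. The median phenotype of the members was -0.998, -1.06, -1.98 and -2.06 in the 4 comparisons, beside -0.06, -0.09, -0.11 and -0.12 over all genes. A total of 11 members were lower in all 4: SMC3, RAD21, STAG2, MAU2 and ESCO2 of cohesin, SMC2, SMC4, NCAPD2, NCAPG and NCAPH of condensin, and ESPL1. With Benjamini-Hochberg adjusted Mann-Whitney p in place of the score, 8 of them were lower in all 4, without SMC3, RAD21 and ESCO2, and with a minimum of 100 counts 8 were, without SMC3, ESCO2 and ESPL1. Another 6 (STAG1, PDS5A, PDS5B, ESCO1, NCAPD3 and NCAPH2) were called in none.

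Tested guide by guide with edgeR (adjusted p under 0.05 over all guides), 49 of the 113 guides were lower at 1000-fold (9.07% of all guides), 36 at 100-fold (5.68%), 47 under DMSO with LGR (7.42%) and 47 of 112 with legacy (6.88%). The 1000-fold comparison has 1 T0 sample, so every edgeR test there takes its spread from the Tf samples alone and leaves the variation of T0 unmeasured. The same 27 guides were lower in all 4 comparisons, 15 in 3, 8 in 2 and 10 in 1, and 53 in none. Of the 5 guides each of MAU2, NCAPH and ESPL1, 4 were lower in all 4 comparisons, whereas none of the 5 of PDS5A, PDS5B or ESCO1 was lower in any. Within the 10 guides of STAG2 and of SMC4, 5 and 6 were lower in none. A pair of guides was called higher, both only at 1000-fold coverage, against the single T0 sample (1.08% of all guides): 1 against STAG1 at 0.37 (SE 0.13, adjusted p = 0.0493) and 1 against WAPAL at 0.43 (SE 0.13, adjusted p = 0.0224), both as log2 fold changes.

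The ring subunits gave some of the steepest losses of the set. SMC1A, one side of the ATPase head, had 0.87, 0.72 and 1.36 CPM in the Tf samples at 1000-fold, against 17.7 CPM in T0. At 100-fold it had 0.89, 0.31, 0.56 and 0.86 CPM in Tf, against 16.5 and 16.3 CPM in T0. Every Tf sample lay far below T0, and the phenotype was -4.62 ± 0.56 (n = 3) at 1000-fold and -5.79 ± 0.55 (n = 4) at 100-fold. In the dasatinib screens SMC1A had 3.63 and 4.68 CPM in the LGR T0 samples, beside 21.6 CPM in the LGR plasmid pool. None of its 3 guides reached 50 counts in the LGR DMSO or T0 samples, so it was not scored there. In legacy 1 guide gave -3.05 ± 0.95 (n = 2). That guide reached the minimum of counts only through T0, which favours a fall. The legacy call was lost by Benjamini-Hochberg adjusted Mann-Whitney p. Of its 3 guides, 1 at 1000-fold and all 3 at 100-fold also reached the minimum only through T0.

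SMC3, the partner ATPase that ESCO1 and ESCO2 acetylate, had 14.3, 13.0 and 13.3 CPM in Tf at 1000-fold, against 45.8 CPM in T0. At 100-fold its Tf samples had 14.2, 13.7, 14.3 and 18.5 CPM and its T0 samples 42.9 and 45.0 CPM. What remained was almost wholly 1 guide, with its PAM at 112327677 on chromosome 10 of hg19, which had 12.3, 10.2 and 10.6 CPM in Tf and 9.98 CPM in T0. The log2 enrichment of that guide was 0.06, 0.22, 0.13 and 0.15 in the 4 growth comparisons, while the other 4 guides lay between -8.00 and -2.84 wherever they were scored. The phenotype of SMC3 was -5.51 ± 0.67 and -4.43 ± 0.55 in the drop-out screens and -5.20 ± 0.14 and -3.53 ± 0.22 under DMSO with LGR and legacy. In both DMSO comparisons, 3 of its 4 scored guides reached the minimum of counts only through T0, which favours a fall.

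RAD21, the kleisin that separase cuts, was lost to a lesser degree. Its guides summed to 28.9, 28.9 and 29.0 CPM in Tf at 1000-fold, against 43.4 CPM in T0, and its phenotype was -1.47 ± 0.12, -1.45 ± 0.30, -1.97 ± 0.71 and -2.09 ± 0.08 across the 4 comparisons. Guides against RAD21 divided into those that fell and those that did not: 1 guide reached -2.70 and -2.49 in the drop-out screens, and 1 gave 0.13 and 0.19. In the LGR DMSO comparison the call of RAD21 was lost without DMSO replicate 2, where its phenotype was -1.47.

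Between the STAG paralogs, which take the same place on the ring, STAG2 was called lower in all 4 growth comparisons and STAG1 in none. The P1 guides of STAG2 summed to 28.9, 30.1 and 28.5 CPM in Tf at 1000-fold, against 38.3 CPM in T0. Under DMSO they summed to 16.6 and 12.8 CPM with LGR, against 41.7 and 43.3 CPM in T0, and to 25.3 and 21.3 CPM with legacy, against 48.6 and 53.0 CPM in T0. DMSO and T0 samples did not overlap in either library. The P2 guides of the same gene had 41.5 and 40.7 CPM under DMSO with LGR, against 40.6 and 35.5 CPM in T0, and their phenotype lay between -0.16 and 0.12 in the 4 comparisons. For P1 it was -0.64 ± 0.02, -0.76 ± 0.24, -2.04 ± 0.65 and -1.51 ± 0.02. At 100-fold edgeR did not call the summed counts of all 10 STAG2 guides (-0.13, SE 0.09, adjusted p = 0.538).

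STAG1 had 41.6, 39.1 and 43.3 CPM in Tf at 1000-fold, against 38.6 CPM in T0, and 34.4 and 33.5 CPM under DMSO with LGR, against 41.9 and 34.2 CPM in T0. Its phenotype was -0.02 ± 0.10, 0.22 ± 0.17, -0.30 ± 0.04 and -0.45 ± 0.29, and no comparison called it. The ratio of STAG2 to STAG1 counts within a sample was lower in Tf or DMSO than in T0 in each of the 4 screens, by 0.24 on the log2 scale on average with all guides of STAG2 (adjusted p = 0.00174, exact permutation test within screens) and by 0.90 with its P1 guides alone (adjusted p = 0.000661), an alternative chosen after seeing the data. With legacy and all guides the log2 ratios overlapped, at 0.74 to 0.75 under DMSO and 0.73 to 1.01 in T0.

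Of the loader, the larger subunit NIPBL and the smaller MAU2 behaved differently. MAU2 had 33.4, 33.2 and 34.0 CPM in Tf at 1000-fold, against 57.2 CPM in T0, and 20.9 and 17.7 CPM under DMSO with LGR, against 48.4 and 54.9 CPM in T0. All of its phenotypes were called, at -1.55 ± 0.06, -1.68 ± 0.37, -2.46 ± 0.47 and -2.90 ± 0.78. Under DMSO, 3 of its 5 guides with LGR and 2 with legacy reached the minimum of counts only through T0. NIPBL had 38.2, 42.4 and 41.5 CPM in Tf at 1000-fold, against 44.1 CPM in T0. Its phenotype was -0.32 ± 0.07, -0.50 ± 0.15, -0.91 ± 0.03 and -0.66 ± 0.25, of which only the last, with legacy, was called, and that call was lost without DMSO replicate 2 or T0 replicate A. With no minimum of counts the legacy call was lost too. Under DMSO with LGR NIPBL was called without T0 replicate B, at -0.998. It was also called there with a minimum of 10 counts (-0.915), of 100 (-0.915) or none (-0.916), and with 10 added to every count (-0.829). The NIPBL to MAU2 ratio within a sample was higher in Tf or DMSO by 0.78 on the log2 scale, in 4 of 4 screens (adjusted p = 0.000772, exact permutation test). In summed counts edgeR called NIPBL lower at 1000-fold (-0.17, SE 0.06, adjusted p = 0.0271) and under DMSO with LGR (-0.44, SE 0.12, adjusted p = 0.0178) and legacy (-0.49, SE 0.12, adjusted p = 0.00613), where 16.4%, 10.2% and 10.1% of all genes were lower.

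Among the release factors, WAPAL was lower in 3 of the 4 comparisons and both PDS5 paralogs in none. WAPAL had 33.1, 34.1 and 34.1 CPM in Tf at 1000-fold, against 42.0 CPM in T0, and 25.2 and 27.4 CPM under DMSO with LGR, against 36.5 and 44.0 CPM in T0. Its guides split sharply: 3 of them gave -1.63, -1.06 and -0.79 at 1000-fold and the other 2 gave 0.39 and 0.24. The phenotype of -1.16 ± 0.09 at 1000-fold was not called, whereas -1.32 ± 0.25, -2.56 ± 0.42 and -1.85 ± 0.00 in the other comparisons were. Under DMSO, 3 of its 5 guides with LGR and 2 with legacy reached the minimum of counts only through T0, which favours a fall. By Benjamini-Hochberg adjusted Mann-Whitney p WAPAL was called in none of the 4. In summed counts edgeR called WAPAL lower at 100-fold (-0.61, SE 0.13, adjusted p = 0.000687, as it did 1682 of 18788 genes). It also did so under DMSO with LGR (-0.63, SE 0.14, adjusted p = 0.002) and legacy (-0.72, SE 0.17, adjusted p = 0.00392). There 10.2% and 10.1% of all genes were lower. At 1000-fold, against the single T0 sample, the change was -0.37. PDS5A had phenotypes of -0.12 ± 0.05, -0.42 ± 0.23, -0.20 ± 0.09 and -0.28 ± 0.02, and PDS5B of 0.19 ± 0.07, -0.05 ± 0.27, -0.20 ± 0.04 and -0.35 ± 0.09. Summed over its guides, PDS5B had 42.9, 45.0 and 46.7 CPM in Tf at 1000-fold, against 37.9 CPM in the single T0 sample, which edgeR on summed counts called higher (log2 fold change 0.19, SE 0.06, adjusted p = 0.0107, where 3.69% of all genes were called higher).

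The acetyltransferase ESCO2, which acts in S phase, was called in all 4 comparisons and its paralog ESCO1 in none. ESCO2 had 45.7, 44.0 and 41.2 CPM in Tf at 1000-fold, against 56.5 CPM in T0, and phenotypes of -0.90 ± 0.09, -1.06 ± 0.15, -1.16 ± 0.03 and -2.06 ± 0.42. Much of this came from 1 of its 5 guides, at -1.72, -2.19, -1.34 and -4.88 in the 4 comparisons. With legacy this guide had 57 and 61 counts in T0 and 1 and 4 in DMSO. It reached the minimum of counts there only through T0, which favours a fall. With legacy, the summed counts of ESCO2 under DMSO, 41.2 and 46.8 CPM, were close to those in T0, 47.7 and 53.9 CPM, and edgeR did not call them (adjusted p = 0.244). The legacy call of ESCO2 was lost without DMSO replicate 1, at -1.77. ESCO1 had 57.0, 59.4 and 63.5 CPM in Tf at 1000-fold, against 61.0 CPM in T0, and phenotypes of -0.19 ± 0.11, -0.18 ± 0.18, -0.23 ± 0.06 and -0.39 ± 0.01.

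The ATPases that both condensins share were lost in every growth comparison. SMC2 had 15.2, 16.3 and 15.4 CPM in Tf at 1000-fold, against 40.3 CPM in T0, and 13.4 and 10.8 CPM under DMSO with LGR, against 28.8 and 25.1 CPM in T0. Its phenotype was -4.05 ± 0.18, -4.59 ± 0.99, -3.67 ± 1.17 and -2.85 ± 0.37. Under DMSO, 2 of its 4 scored guides with LGR and 3 of 4 with legacy reached the minimum of counts only through T0. SMC4, like STAG2, was lost through its P1 guides, which had 19.5, 18.5 and 18.7 CPM in Tf at 1000-fold, against 39.8 CPM in T0. The P2 guides of SMC4 had 39.4, 38.3 and 40.0 CPM in the same Tf samples, against 35.4 CPM in T0. For P1 the phenotype was -3.07 ± 0.30, -4.45 ± 0.66, -1.98 ± 0.50 and -3.29 ± 0.69, and for P2 0.08 ± 0.06, -0.12 ± 0.27, -0.15 ± 0.14 and -0.05 ± 0.27. Under DMSO, 2 of the 9 scored SMC4 guides with LGR and 2 of 10 with legacy reached the minimum only through T0, which favours a fall. With LGR the P1 value there rested on 4 scored guides. The SMC4 guides lie at 160117471 to 160117838 for P1 and at 160122169 to 160122616 for P2 on chromosome 3 of hg19.

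All 3 subunits particular to condensin I were lower in all 4 comparisons. The kleisin NCAPH had 10.1, 8.90 and 9.75 CPM in Tf at 1000-fold, against 46.7 CPM in T0, and 6.02 and 6.19 CPM under DMSO with LGR, against 27.3 and 29.2 CPM in T0. Its phenotypes of -3.59 ± 0.07, -3.75 ± 1.22, -5.21 ± 0.13 and -5.34 ± 1.04 were the lowest of the condensin I subunits in each comparison. Under DMSO, 4 of its 5 guides with LGR and all 5 with legacy reached the minimum of counts only through T0, which favours a fall. The HEAT-repeat subunit NCAPD2 had 22.5, 20.6 and 22.8 CPM in Tf at 1000-fold, against 38.6 CPM in T0, and phenotypes of -2.22 ± 0.26, -2.84 ± 0.31, -4.23 ± 0.31 and -4.31 ± 0.07. Under DMSO, 3 of its 5 guides with LGR and 2 with legacy reached that minimum only through T0. NCAPG, the other HEAT-repeat subunit, had 27.1, 26.5 and 24.2 CPM in the same Tf samples, against 43.5 CPM in T0. Its phenotypes were -0.998 ± 0.10, -0.96 ± 0.16, -3.12 ± 1.15 and -2.23 ± 0.60, and all 5 of its guides lay below 0 in all 4 comparisons, of which 3 reached the minimum only through T0 in each DMSO comparison.

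Of the 3 subunits particular to condensin II, 0, 0, 1 and 0 were called in the 4 comparisons. The kleisin NCAPH2 had 40.1, 36.9 and 37.2 CPM in Tf at 1000-fold, against 38.8 CPM in T0, and phenotypes of -0.19 ± 0.05, -0.01 ± 0.33, -0.83 ± 0.03 and -0.58 ± 0.27. NCAPD3, the counterpart of NCAPD2, had 41.8, 37.6 and 40.8 CPM in these Tf samples, against 41.0 CPM in T0, and phenotypes of -0.20 ± 0.03, -0.34 ± 0.12, -0.17 ± 0.10 and -0.59 ± 0.04. Neither gene was called by phenotype. In summed counts edgeR called NCAPD3 lower under DMSO with legacy (-0.47, SE 0.11, adjusted p = 0.0028, where 10.1% of all genes were lower). It did not call NCAPD3 under DMSO with LGR or at 100-fold (adjusted p = 0.872 and 0.706), nor NCAPH2 under DMSO with legacy (adjusted p = 0.434). NCAPG2, the counterpart of NCAPG, had phenotypes of -0.73 ± 0.04, -0.78 ± 0.40, -1.55 ± 0.10 and -0.78 ± 0.12. Only the third, under DMSO with LGR, was called, and that call was lost without DMSO replicate 2 or T0 replicate A. It was also lost by Benjamini-Hochberg adjusted Mann-Whitney p, with the mean of all guides (-0.87) and with a minimum of 100 counts (-0.43). In summed counts edgeR called NCAPG2 lower there (-0.50, SE 0.14, adjusted p = 0.0166, where 10.2% of all genes were lower). A single guide carried NCAPG2, at -1.84, -2.11, -2.90 and -2.29, with its other 4 guides between -1.15 and 0.47. In both DMSO comparisons that guide reached the minimum of counts only through T0, which favours a fall.

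Separase gave the deepest loss of the 21 genes at 100-fold coverage. ESPL1 had 3.80, 2.75 and 2.24 CPM in Tf at 1000-fold, against 57.3 CPM in T0, and 1.54, 2.18, 2.35 and 1.35 CPM in Tf at 100-fold, against 48.4 and 48.0 CPM in T0. Under DMSO it had 0.48 and 0.98 CPM with LGR, against 13.0 and 16.9 CPM in T0, and 1.37 and 2.67 CPM with legacy, against 15.5 and 14.1 CPM in T0. No Tf or DMSO sample came near a T0 sample. The phenotypes were -5.14 ± 0.10, -7.11 ± 0.68, -4.91 ± 0.35 and -4.58 ± 0.30, and all 5 guides were below 0 wherever they were scored, although 2, 4, 4 and 4 of them reached the minimum of counts only through T0.

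In the dasatinib screens, where T0 was collected 7 days after infection, some members were already low in T0 against the plasmid pool. Relative to the non-targeting guides, the T0 level stood at -2.58 with LGR and -2.32 with legacy on the log2 scale for ESPL1. It was -2.51 and -1.99 for SMC1A, -1.14 and -1.29 for SMC3 and -1.12 and -0.91 for SMC2. For NCAPH it was -0.73 and -0.84, and for the P1 guides of SMC4 -0.93 and -0.62. The P2 guides of SMC4 had 39.6 and 42.9 CPM in the LGR T0 samples, against 37.9 CPM in the LGR plasmid pool. Under 1% of all genes lay below ESPL1 and SMC1A there. In the drop-out screens the T0 level was -0.18 and -0.40 for ESPL1 and -0.38 and -0.47 for SMC1A at 1000- and 100-fold. The P1 guides of STAG2 and the guides of STAG1 lay between -0.17 and 0.19 in all of these T0 groups. With 1 sequenced plasmid pool per library, no test was made, and the DMSO over T0 phenotype of a gene that was low in T0 covers only the later part of its loss.

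Subunit pairs were compared within samples by the log2 ratio of their summed counts, with sample labels permuted within each screen (exact two-sided permutation test, 2160 arrangements, 10 pairs). Of the 10 pairs, 9 changed ratio between Tf or DMSO and T0. Condensin I fell against condensin II by 1.29 on the log2 scale, NCAPH against NCAPH2 by 2.39, NCAPD2 against NCAPD3 by 1.01 and NCAPG against NCAPG2 by 0.87. Each of these stood at the smallest p that the arrangements can give (0.000463, adjusted p = 0.000772) and had the same sign in 4 of 4 screens. ESCO2 fell against ESCO1 by 0.38 (adjusted p = 0.00463), although by only 0.016 with legacy, and SMC1A fell against SMC3 by 2.19. With the mean over guides of log2 CPM in place of summed counts, the change of SMC1A against SMC3 was -0.71 (adjusted p = 0.0396), in 3 of 4 screens. The same alternative gave -2.08 for NCAPD2 and NCAPD3, -2.08 for condensin I and condensin II, -1.73 for SMC2 and SMC4, -0.69 for ESCO2 and ESCO1 and -0.40 for STAG2 and STAG1, each over 1.5 times the change in summed counts. The pair that did not pass was PDS5A and PDS5B, with a change of -0.10 (adjusted p = 0.213) and a fall in 2 of 4 screens. SMC2 fell against SMC4 by 0.95 when all 10 guides of SMC4 were summed (adjusted p = 0.00132), and the change was -0.032 (adjusted p = 0.856) when only its P1 guides were, an alternative chosen after seeing the data.

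Between the libraries, the change of DMSO over T0 was tested as an interaction (LGR minus legacy). EdgeR called 0 of 113 member guides (17 at an unadjusted p under 0.05, while 0.144% of all guides were called), and 0 of the 21 genes by summed counts (6 unadjusted, with 0.351% of all genes lower and 0.378% higher). The gene with the smallest p was NCAPH, with a difference of 1.05 (SE 0.32, adjusted p = 0.136). Between 100- and 1000-fold coverage with the LGR library, edgeR called 0 member guides (2 unadjusted, 0.0% of all guides called) and 0 genes (0 unadjusted, 0.0% of all genes called). DESeq2 was not run on these differences.

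Under dasatinib, STAG2 was the only member called by the gene phenotype in both libraries at the minimum of 50 counts. It was higher than under DMSO. With a minimum of 10 counts or none, SMC3 was also called higher in both libraries. The P1 guides of STAG2 summed to 49.8 and 76.9 CPM in the LGR DASA samples, against 16.6 and 12.8 CPM in the LGR DMSO samples, and to 66.7 and 50.5 CPM in the legacy DASA samples, against 25.3 and 21.3 CPM in the legacy DMSO samples. DASA and DMSO did not overlap in either library, and the DASA values lay near or above those of T0, which were 41.7 and 43.3 CPM with LGR and 48.6 and 53.0 CPM with legacy. The phenotype of the P1 guides was 2.63 ± 0.51 with LGR and 1.92 ± 0.22 with legacy (n = 2 each), with all 5 guides above 0 in both. In each library 1 of the 5 reached 50 counts only through DASA, at 123095681 with LGR and at 123095617 with legacy, so the filter favoured its sign. These comparisons share their DMSO samples with those of DMSO over T0, in which the same guides were low.

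For STAG2 as a whole, 10 guides summed to 154 and 126 CPM in the LGR DASA samples, against 58.1 and 53.5 CPM under DMSO (edgeR on summed counts, log2 fold change 1.38, SE 0.16, adjusted p = 0.00837, where 0.809% of all genes were called higher). With legacy the sums were 110.1 and 110.3 CPM in DASA, against 77.7 and 81.3 CPM under DMSO (0.52, SE 0.12, adjusted p = 0.0737). The difference between the libraries was 0.88 (SE 0.20, adjusted p = 0.203). Part of the LGR sum was 1 P2 guide, with its PAM at 123094566, which had 75.9 and 19.0 CPM in DASA, against 11.8 and 9.03 CPM under DMSO. Its 1218 counts in LGR DASA replicate 1 were 11.2% of all member counts of that sample. With legacy this guide had 8.07 and 22.3 CPM in DASA, against 16.2 and 20.4 CPM under DMSO. The phenotype of the P2 guides was 0.67 ± 0.26 with LGR and 0.02 ± 0.16 with legacy and was called in neither.

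The P1 guides of STAG2 differed among themselves in size. The guide with its PAM at 123095685 had 16.4 and 36.2 CPM in LGR DASA, against 6.20 and 1.39 CPM in LGR DMSO, and 17.9 and 14.99 CPM in legacy DASA, against 4.24 and 4.82 CPM in legacy DMSO. In legacy this was the only member guide that edgeR called (log2 fold change 1.98, SE 0.35, adjusted p = 0.0436). The guide at 123096024 had 10.2 and 10.4 CPM in LGR DASA, against 3.13 and 2.95 CPM in LGR DMSO, and 20.1 and 11.1 CPM in legacy DASA, against 8.59 and 7.44 CPM in legacy DMSO. Over all members, edgeR called 0 of 100 guides tested with LGR (24 at an unadjusted p under 0.05 and 11 by DESeq2, beside 0.0993% of all guides called by edgeR and 2.06% by DESeq2) and 1 of 105 with legacy (19 unadjusted and 5 by DESeq2, beside 0.607% and 2.41%).

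STAG1 was called in neither library under dasatinib. It had 37.7 and 34.6 CPM in LGR DASA, against 34.4 and 33.5 CPM in LGR DMSO, and 46.6 and 52.3 CPM in legacy DASA, against 46.5 and 48.3 CPM in legacy DMSO. Its phenotype was 0.26 ± 0.47 and -0.09 ± 0.26. The STAG2 to STAG1 ratio was higher in DASA by 0.82 on the log2 scale on average over both libraries (p = 0.0556, exact permutation test), or by 1.63 with the P1 guides. With 2 samples a group no pair could pass 0.05, since 0.0556 is the smallest two-sided p that the 36 arrangements allow. SMC2 to SMC4, lower in DASA by 1.03, was the other pair at that p.

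At the minimum of 50 counts with all samples, other members were called by phenotype under dasatinib with LGR only. There 3 of 20 scored genes passed (2.21% of all genes, 1.46% higher and 0.752% lower), against 1 of 19 with legacy (1.2% of all genes, 0.816% higher and 0.387% lower). ESPL1 had 14.5 and 4.68 CPM in LGR DASA, against 0.48 and 0.98 CPM in LGR DMSO. This was 1 guide, at 230 and 61 counts in DASA and 3 and 15 in DMSO, so it reached the minimum of 50 counts only through DASA and its sign followed from that filter. In legacy the same guide had 17 and 6 counts in DASA and 15 and 26 in DMSO and was not scored. SMC2 had 3.55 and 5.24 CPM in LGR DASA, against 13.4 and 10.8 CPM in LGR DMSO, and a phenotype of -1.67 ± 0.29 on 2 guides. The guide with fewer counts had 9 and 9 counts in DASA and 84 and 30 in DMSO, so it passed the minimum only through DMSO. The SMC2 call was lost without DASA replicate 1, at -1.48, and without DMSO replicate 1, at -1.20. It was also lost with no minimum of counts, at -0.43, with a minimum of 100, at -1.13, and with 10 added to every count, at -1.22. In legacy SMC2 had 10.2 and 6.64 CPM in DASA and 11.7 and 9.24 CPM in DMSO, with -0.16 ± 0.20 on 1 guide. EdgeR on summed counts called neither gene with LGR (ESPL1 adjusted p = 0.0692, SMC2 adjusted p = 0.164).

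RAD21 was high under dasatinib in both libraries without a call by phenotype. It had 47.2 and 28.0 CPM in LGR DASA, against 24.4 and 19.3 CPM in LGR DMSO, and 41.1 and 37.7 CPM in legacy DASA, against 19.9 and 21.03 CPM in legacy DMSO. The groups did not overlap in either library. EdgeR on summed counts called the legacy difference (log2 fold change 0.99, SE 0.20, adjusted p = 0.0406, where 1.6% of all genes were called higher) but not that of LGR (0.84, SE 0.29, adjusted p = 0.246), and the difference between the libraries was -0.14 (SE 0.36). The phenotypes were 2.27 ± 0.34 and 1.74 ± 0.29. RAD21 was called by phenotype without DASA replicate 2 with LGR, at 2.50, and without DMSO replicate 2 with legacy, at 1.79. With legacy it was also called with the mean of all guides, at 1.37. A minimum of 10 counts (1.75), of 100 (1.72) or none (1.74) gave a legacy call too. The phenotypes over all samples came from 3 guides at 3.59, 2.01 and 1.20 with LGR and 1.38, 1.57 and 2.26 with legacy, the guides that were also the lowest scored ones of the gene in DMSO over T0, which shares the DMSO samples. The guide at 3.59 with LGR, with 153 and 154 counts in DASA and 29 and 8 in DMSO, and the guide at 1.57 with legacy, with 105 and 62 counts in DASA and 23 and 42 in DMSO, reached the minimum only through DASA, which favoured their sign.

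WAPAL, with a phenotype of 2.45 ± 0.01 with LGR and -0.29 ± 0.48 with legacy, was called in neither. The 3 guides behind the LGR value reached 50 counts only through DASA, so its sign followed from that filter. With legacy, 1 of the 4 scored WAPAL guides passed only through DASA and 2 only through DMSO. The guides of WAPAL moved in both directions. The guide with its PAM at 88281533 on chromosome 10 of hg19 had 9.41 and 9.98 CPM in LGR DASA, against 1.81 and 1.74 CPM in LGR DMSO, and 3.81 and 3.58 CPM in legacy DASA, against 1.03 and 0.87 CPM in legacy DMSO. The guide at 88280839 had 2.99 and 3.39 CPM in LGR DASA, against 11.0 and 9.26 CPM in LGR DMSO, and 0.70 and 2.33 CPM in legacy DASA, against 5.33 and 6.51 CPM in legacy DMSO. For neither guide did DASA and DMSO overlap in either library. EdgeR gave the first guide an adjusted p of 0.0828 and 0.239 and the second 0.247 and 0.284 in the 2 libraries.

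The remaining members showed no call under dasatinib by the gene phenotype at the minimum of 50 counts with all samples. SMC1A was scored in neither library, since none of its guides reached 50 counts. It had 3.30 and 2.96 CPM in LGR DASA, against 0.60 and 0.81 CPM in LGR DMSO, and 3.43 and 0.62 CPM in legacy DASA, against 0.92 and 1.80 CPM in legacy DMSO. The groups did not overlap with LGR, where edgeR on summed counts gave 2.19 (SE 0.66, adjusted p = 0.205), and overlapped with legacy. MAU2 had phenotypes of 1.20 ± 0.72 with LGR and 0.76 ± 0.32 with legacy, and its 23.0 and 36.2 CPM in LGR DASA lay above the 20.9 and 17.7 CPM in LGR DMSO. Of its scored guides, 2 of 4 with LGR and 1 of 4 with legacy passed the minimum only through DASA. SMC3 had 20.6 and 12.3 CPM in LGR DASA, against 9.27 and 15.1 CPM in LGR DMSO, which overlap. With legacy SMC3 had 43.6 and 27.4 CPM in DASA, against 21.3 and 23.0 CPM in DMSO, and a phenotype of 1.94 ± 0.21 on 3 guides, of which 2 passed the minimum of counts only through DASA. It was called higher without DMSO replicate 2, at 1.97, and with the mean of all guides, at 1.94. With a minimum of 10 counts or none it was called higher too, at 2.21 and 2.20. With LGR, SMC3 was called higher under these minima, at 3.88 and 3.87. NIPBL, PDS5A, PDS5B, ESCO1, ESCO2, NCAPD3, NCAPG2 and NCAPH2 lay between -0.42 and 0.43 with both libraries. The condensin I subunits ranged from -0.84 (NCAPD2, legacy) to 1.56 (NCAPG, legacy), and NCAPH rested on 1 scored guide in each library. With legacy, 2 of the 4 scored guides of NCAPG and the guide of NCAPH passed the minimum only through DASA. Of the 3 scored guides of NCAPD2 with legacy, 1 passed it only through DMSO, which favoured its fall. SMC4 had -0.60 ± 0.19 with LGR, from its P2 guides, and 1.61 ± 0.89 with legacy, from its P1 guides. Its P2 guides had 31.2 and 25.8 CPM in LGR DASA, against 42.3 and 39.2 CPM in LGR DMSO, but 109 and 109.8 CPM in legacy DASA, against 89.4 and 81.8 CPM in legacy DMSO. The difference between the libraries in summed SMC4 counts was -0.48 (SE 0.20, adjusted p = 0.411 by edgeR). The LGR DASA samples of ESCO2 lay on either side of DMSO, with 31.0 and 89.4 CPM in DASA, against 37.2 and 34.3 CPM in LGR DMSO.

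The median phenotype of the members under dasatinib was 0.25 with LGR and 0.14 with legacy, beside 0.05 and 0.00 over all genes. Of 85 member guides scored in each library, 9 and 10 reached the minimum of counts only through DASA and 5 and 7 only through DMSO. The filter favours a rise for the former and a fall for the latter. With LGR 6 of the 20 scored genes, and with legacy 2 of the 19, rested on under 3 guides. The spread of single guides was wider here than in the growth comparisons. The SD of the non-targeting guides was 0.67 with LGR and 0.65 with legacy, against 0.42 in both DMSO over T0 comparisons, 0.32 at 100-fold and 0.23 at 1000-fold. Of the non-targeting guides, 13.5% with LGR and 8.85% with legacy lay beyond 1 in either direction under dasatinib. As an interaction (LGR minus legacy), edgeR called 0 of 107 member guides (12 unadjusted, with 0.00293% of all guides called) and 0 of 21 genes (3 unadjusted, with 0.00532% of all genes lower and 0.00532% higher) for DASA over DMSO.

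Guides against genes that act beside these complexes were also lost during growth. Of 32 such genes, 18, 17, 19 and 18 were lower in the 4 growth comparisons, beside 11.3%, 10.2%, 10.1% and 9.48% of all genes, and none was higher. This list was chosen with earlier results of these data known and serves as background only. How many of its guides reached the minimum of counts only through T0 was not counted. Among the 9 genes for chromosome condensation and the chromosomal passenger complex, INCENP, BIRC5 and AURKB, all of the passenger complex, averaged phenotypes of -5.24, -4.78 and -4.59 over the 4 comparisons and were called in each. Of the 12 cohesion and separation genes, PTTG1, the securin that restrains separase, averaged -4.13, the replication fork protein WDHD1 -2.43 and CHTF18, part of a PCNA clamp loader, -1.82. Of the 7 genes of the SMC5/6 complex, a relative of cohesin in DNA repair, NSMCE1 averaged -2.90, NSMCE4A -2.14 and NDNL2 -1.72. Of the 4 meiotic paralogs, REC8, the meiotic kleisin, was called with legacy only and the others in none. Under dasatinib 1 of 28 scored genes of this list was called with LGR and 0 of 29 with legacy, beside 2.21% and 1.2% of all genes.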

How the data were processed

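The deposited values were raw guide counts, which the authors made by demultiplexing with bcl2fastq (per the submitters' processing notes, which also name hg19) and counting reads per guide with ScreenProcessing. No normalized values were used. The 21 genes and the partner list were chosen with earlier results of these data known. Per guide, log2 CPM was averaged over a group (a count of 0 set to 1), differenced between groups and centred on the median non-targeting guide, for guides with 50 counts in at least 1 sample. The gene phenotype averaged the 3 guides of largest size, and the start site of lowest p stood for a gene. The threshold came from pseudo-genes of 5 non-targeting guides in 10 shuffles. Single guides with 10 counts in 1 sample, and counts summed per gene, were compared between groups by quasi-likelihood in edgeR (TMM, Benjamini-Hochberg over all features, adjusted p under 0.05), with DESeq2 as an alternative. Other alternatives were normalization, count minimum, scoring, left-out samples and a replicate block. Scripts were tested on simulated data.

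All 21 genes are named for each growth and dasatinib comparison. Of the partner list at most 3 genes per group are named, those called in the most growth comparisons, and single guides where they were the strongest or weakest of a gene or called under dasatinib. The LGR plasmid library was identified by its title. Guide sequences were not used here. Tests ran in R 4.3.3 with edgeR 4.0.16, limma 3.58.1 and DESeq2 1.42.0, and scores in scipy 1.17.1, numpy 2.4.6 and pandas 2.3.3 under Python 3.11.15.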

Additional observations from a re-analysis of the deposited data

Results flagged for a closer look

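The P1 phenotype of STAG2 at 100-fold coverage had 1 Tf sample apart from the other 3. The highest of the 4 Tf samples gave -0.42, and the others lay between -0.92 and -0.87, all relative to the same T0 samples. The gap was 0.913 of the whole range, above Dixon's 95% critical value for 4 samples. Chance flags about 1 in 20 such groups, and 21 genes were examined.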

How the results depend on the processing

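Counts of member genes lower during growth stayed within 1.5 times under every alternative run, at 12 to 12, 13 to 13, 11 to 14 and 13 to 14 without 1 sample at 1000-fold, at 100-fold, under DMSO with LGR and under DMSO with legacy. Counts of guides lower in the same order were 48 to 50, 18 to 37, 21 to 54 and 27 to 54. The low ends came from the T0 samples: 18 and 19 without T0 replicate 1 or 2 at 100-fold (3.07% and 3.04% of all guides), 22 and 21 without T0 replicate A or B with LGR (3.28% and 3.34%), and 27 without either with legacy (4.01% and 4.1%). Under dasatinib with LGR, the 3 genes called became 1 with Benjamini-Hochberg adjusted Mann-Whitney p, 5 with a minimum of 10 counts, 1 by edgeR on summed counts, 1 where only genes scored on 3 or more guides counted (chosen after seeing the data) and 2 to 4 without 1 sample. The 0 guides called there became 11 by DESeq2 (2.06% of all guides), 6 with T0 samples in the fit (1.17%) and 0 to 35 without 1 sample (35 without DASA replicate 1 and 21 without DASA replicate 2, where 21.1% and 20.2% of all guides were called). With legacy the 1 gene called became 3 with the mean of all guides, 3 with a minimum of 10 counts, 2 with a minimum of 100, 3 with no minimum and 1 to 3 without 1 sample (3 without DMSO replicate 2). The 1 guide called there became 0 with total counts, 0 with library sizes from non-targeting guides, 5 by DESeq2 (2.41%), 6 with T0 in the fit (2.32%) and 0 to 23 without 1 sample (13 and 23 without DASA replicate 1 or 2, where 15.9% and 15.6% of all guides were called, 0 without DMSO replicate 1 or 2). SMC3 under dasatinib with LGR turned to 3.88 with a minimum of 10 counts and 3.87 with no minimum, and was called higher in both. At the minimum of 50 counts it had -0.01 on its 1 scored guide, and its other guides entered below that minimum. The growth ratio of SMC2 to SMC4 was -0.032 with P1 guides alone. The cause of the other changes was not tested.

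Replicate numbers did not pair the samples: deviations of same-numbered samples correlated at 0.0017 with LGR and -0.0013 with legacy (DASA and DMSO) and 0.0018 at 100-fold. With a replicate block, edgeR called 7 member guides with LGR (0.958% of all guides) and 5 with legacy (2.43%) under dasatinib, and 34 lower at 100-fold (5.95%).

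Of 1479 values of single genes under alternatives, 1419 kept their side of the threshold (62 of these, past no threshold in either setting, changed sign), 22 gained and 36 lost a call and 2 reversed. Median member counts of 70 to 168 in the dasatinib screens, and up to 13 members at 0, limit what can be said of guides already lost in T0.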
